A study of Mus musculus with 12 samples.

Results

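Established mouse induced pluripotent stem cells (iPSC) were compared with Stage1 cells, which were collected at day 6 of the conversion of mouse embryonic fibroblasts (MEF) to pluripotency. The comparison used 6 of the 12 RNA-seq libraries of the series, the 3 titled iPSC and the 3 titled Stage1. Cells of both groups were of a mixed C57BL/6 x 129 background. Per the series text, cells of both were sorted for Oct4-GFP, where green fluorescence reports on Pou5f1 (Oct4), so Stage1 here is the reporter-positive fraction of the day 6 culture and not the whole culture. The reprogramming factors, their vector, the culture medium, and whether the iPSC libraries came from 1 line or several are not given in the sources used here. The other 6 libraries, from MEF and from Stage2 (day 6+4), entered the fit of the spread and are quoted as levels.

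In each of the 12 libraries the title and the stage given as a characteristic name different groups, and groups were taken from the titles. Under that second label the Stage1 libraries would be MEF and unsorted, and the iPSC libraries would be Stage 2. For the Stage1 libraries the measured levels bear on this directly. The 18 genes of a general pluripotency list summed to 4707 to 5189 counts-per-million (CPM) in the Stage1 libraries and to 8.52 to 11.7 CPM in the MEF libraries. A list of 34 fibroblast and mesenchymal genes summed to 558 to 837 CPM in Stage1 and to 78729 ± 6206 CPM (SD, n = 3) in MEF. By these levels the libraries titled Stage1 were unlike those titled MEF. For iPSC and Stage2 the pluripotency sums overlapped, at 7218 to 8555 CPM and 6940 to 7673 CPM. The fibroblast sums were 1064 to 1157 CPM in iPSC and 1774 to 2090 CPM in Stage2. Whether the title or the second label is right for the iPSC libraries was not tested.

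Pluripotent cells are held by a network of transcription factors around Pou5f1, Sox2 and Nanog, which signals through LIF, BMP, FGF, Nodal and Wnt adjust between a naive state, like the epiblast of the blastocyst, and a primed state, like the epiblast after implantation. Reprogramming first silences fibroblast genes and switches on this network, and chromatin marks such as DNA methylation are known to be rebuilt over a longer time. Genes of the germ line and of the 2-cell embryo are held down in most somatic cells by DNA methylation and by repressor complexes, and some of them are transcribed at low levels in pluripotent cultures.

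The 3 Stage1 libraries held 14387025, 11670763 and 12276065 reads counted in genes, and the 3 iPSC libraries 11245521, 14070194 and 10990790. Of all reads, 42.8% ± 4.11 in Stage1 and 38.8% ± 4.87 in iPSC fell outside genes (SD, n = 3 each). The rank correlation across genes was 0.986 to 0.991 within Stage1, 0.987 to 0.991 within iPSC and 0.928 to 0.939 between them. The first principal component of the 6 libraries, with 76.7% of the variance, separated the groups. Stage1 replicate 1 stood apart from the other Stage1 libraries on the second, which held 7.5%. Nothing in the labels says that replicates came from separate cultures or animals, so p-values measure only the spread between these libraries, which may be technical. In bulk RNA, fewer cells that transcribe a gene and less RNA of it per cell cannot be told apart.

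Of 14762 genes tested, 3144 (21.3%) were higher in iPSC and 2687 (18.2%) lower, at a Benjamini-Hochberg adjusted p under 0.05 in edgeR's quasi-likelihood test. In all, 39.5% of the genes were called. When library totals replaced TMM scaling, the median of all genes moved by 0.104 and 63.6% of calls were higher, against 53.9%. Without Stage1 replicate 1 the counts were 2914 and 2303. At a fold of 2 or more the split was less even, with 2277 genes higher (15.4%) and 856 lower (5.8%). The 3 iPSC libraries lay above all 3 Stage1 libraries in 30% of genes and below them in 28.7%. The median log2 fold change over all genes was 0.0095, but it changed with the mean level over the 6 libraries. It was 0.39 up to 1 CPM, 0.55 above 1 and up to 5 CPM, and 0.07 above 5 and up to 20 CPM. Above 20 and up to 100 CPM it was -0.12, and above 100 CPM -0.19. A list's median is therefore to be read against genes of like level and not against 0. Fold changes are on the log2 scale, iPSC over Stage1, with the standard error (SE) of the fit. Each of the 12 libraries was also left out in turn, and for each gene list the count is given of calls that held in all 12 of those fits.

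**Figure D1:**
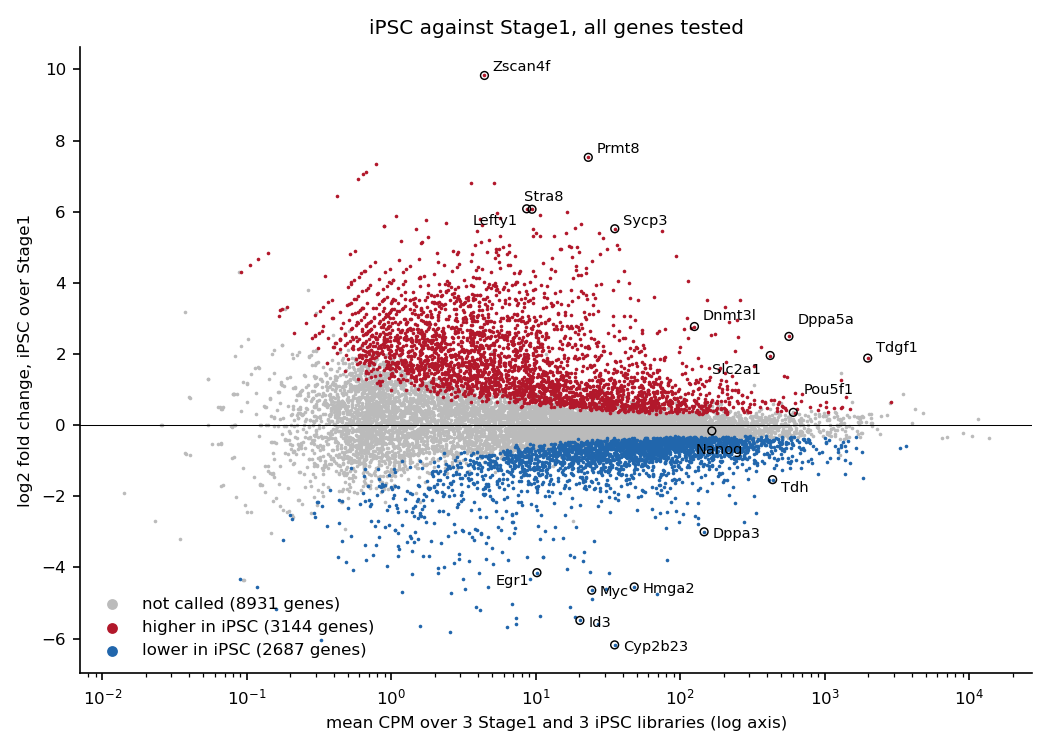
Each point is 1 of the 14762 genes tested, with its mean CPM over the 6 libraries on a log axis and its log2 fold change, iPSC over Stage1, on the vertical axis; red and blue mark genes called higher and lower. Genes called higher reach their largest folds at low levels (Zscan4f, Stra8, Lefty1), Tdgf1 and Dppa5a are high and higher still in iPSC, and Pou5f1 and Nanog lie close to 0.

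The direction of change depended on how abundant a gene was. Among the 2932 genes with a mean level above 1 and up to 5 CPM, 35.4% were higher in iPSC and 8.22% lower. For the 2133 genes above 100 CPM the order was the opposite, with 9.99% higher and 32.5% lower. The lists of germ line, 2-cell, lineage and fibroblast genes described below consist mostly of genes at low levels, so their counts stand beside those of the low bins as well as beside those of all genes.

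**Figure D2:**
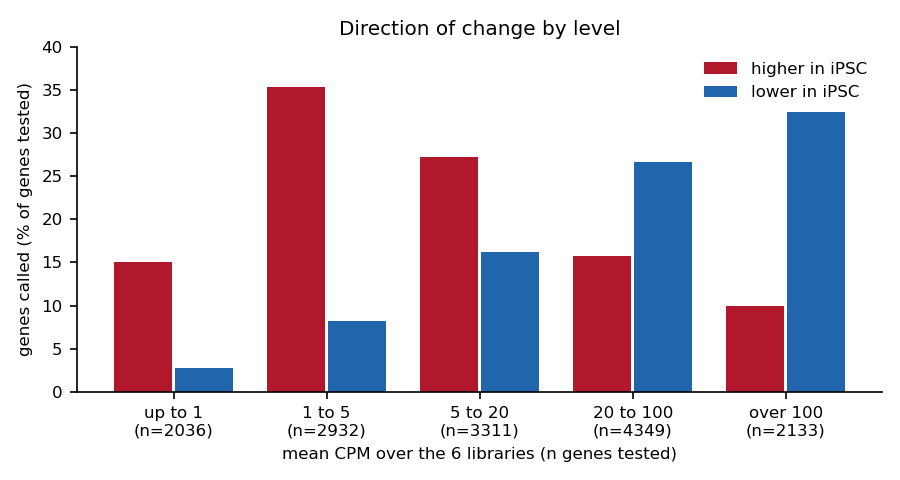
Bars give the percentage of tested genes called higher (red) or lower (blue) in iPSC than in Stage1, for 5 classes of mean CPM over the 6 libraries. The share called higher is 35.4% in the class above 1 and up to 5 CPM and 9.99% above 100 CPM, while the share called lower goes from 2.8% in the lowest class to 32.5% in the highest.

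The genes with the largest rises among those reaching 10 CPM in a group were nearly silent in Stage1. Prmt8 (chromosome 6, 127689009 to 127769467, mm10), which encodes an arginine methyltransferase, was at 0.415, 0.269 and 0 CPM in the 3 Stage1 libraries and at 53.6, 40.8 and 43.4 CPM in the 3 iPSC libraries (log2 fold change 7.53 ± 0.436 SE, edgeR adjusted p = 1.53e-09). Stage2 lay between the groups at 21 ± 1.67 CPM (SD, n = 3), and without Stage1 replicate 1 the log2 fold change was 8.36. That the groups of the genes named in this paragraph do not overlap follows from the rule that chose them. The testis-type histone gene Hist1h2aa had 3 reads over the Stage1 libraries and 391 over the iPSC libraries, a ratio of 128 with 95% counting limits of 43.6 and 625. Among those next in size were Lefty1, Stra8, Myo1f (a class I myosin), Krt42 (a keratin), Kcnk1 (a potassium channel), Mcf2 (an exchange factor for small GTPases), Sycp3, Sohlh2 (a germ cell transcription factor) and Fgd5 (an activator of Cdc42), with log2 fold changes of 5.40 to 6.08. Myo1f averaged 0.49 ± 0.177 CPM in Stage1 and 32.6 ± 8.26 CPM in iPSC, Krt42 0.165 ± 0.149 and 10.6 ± 2.72 CPM, and Mcf2 0.827 ± 0.597 and 40.3 ± 5.62 CPM (SD, n = 3).

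Among genes reaching 10 CPM in a group, which for a fall means in Stage1, the largest falls were those of Cyp2b23, Slc39a8 and others. Cyp2b23 (chromosome 7, 26665227 to 26686430, mm10), a cytochrome P450 gene, was at 77.6, 63.9 and 66.4 CPM in Stage1 and at 0.756, 0.903 and 1.19 CPM in iPSC (log2 fold change -6.18 ± 0.261 SE, edgeR adjusted p = 4.15e-11). It was nearly silent in MEF, at 0, 0.0669 and 0 CPM. Slc39a8, a zinc and manganese transporter, was at 62.7, 35.8 and 44.7 CPM in Stage1 and 1.76, 1.53 and 1.53 CPM in iPSC. Arntl2, a clock protein, went from 36.4 ± 1.52 to 0.841 ± 0.464 CPM and the neurofilament gene Nefm from 33.3 ± 7.13 to 0.955 ± 0.281 CPM. That the groups of these 4 genes do not overlap follows from the rule that chose them. Cd59a, a regulator of complement, and Capn6, of the calpain family, were also lower, and MEF held 75.6 and 20.8 CPM of them. Clec2i, Aox3 and AA467197 fell from Stage1 means of 13.3, 14.3 and 20.9 CPM to iPSC means of 0.397, 0.338 and 0.481 CPM. Foxd1, a forkhead factor, met the same rule mainly through 1 library, with 34.4, 4.57 and 3.62 CPM in Stage1 against 0.084, 0.278 and 0.51 CPM in iPSC, and its log2 fold change of -5.58 was -3.77 without Stage1 replicate 1.

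Measured by CPM gained or lost, the leading genes were of other kinds. Tdgf1, Aldoa, Dppa5a, Slc2a1, Mcl1 (an inhibitor of apoptosis) and Rpph1 (the RNA of RNase P) gained most. Mcl1 was at 327, 299 and 298 CPM in Stage1 and 822, 750.0 and 813 CPM in iPSC (log2 fold change 1.37 ± 0.122 SE, edgeR adjusted p = 1.71e-07). Its groups were clearly separate, whereas Rpph1 was uneven among iPSC libraries, at 1122, 676 and 487 CPM. The genes that lost most were Ncl, Atrx, Hnrnpa2b1, G3bp2, Ddx21 and Mdn1. Ncl (nucleolin), Ddx21 and Mdn1 work in the nucleolus in ribosome production, Atrx is a chromatin remodeller, and Hnrnpa2b1 and G3bp2 bind RNA. Ncl went from 2333, 2759.9 and 2988 CPM to 838, 1174 and 887 CPM (log2 fold change -1.48 ± 0.246 SE, edgeR adjusted p = 0.000157), and the other 5 had log2 fold changes of -1.38 to -1.05.

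Stage1 cells already held the core pluripotency factors within less than a fold of 2 of their iPSC level, and genes around them moved in both directions. Of 18 general pluripotency genes tested, 5 were higher in iPSC and 6 lower (median 0.12). Over all genes tested 21.3% were higher and 18.2% lower. The list's median member was at 166 CPM, and above 100 CPM 9.99% of all genes were higher and 32.5% lower. Pou5f1 was at 444, 559 and 588 CPM in Stage1 and at 734, 665 and 642 CPM in iPSC. Its groups did not overlap, but the difference was not called, with a 95% interval of the log2 fold change of -0.03 to 0.75 and an edgeR adjusted p of 0.171. When only the 6 libraries compared entered the fit, it was called, at 0.39 (edgeR adjusted p = 0.00867). Nanog was at 171, 184 and 169 CPM in Stage1 and 174, 150.1 and 144 CPM in iPSC, with an interval of -0.49 to 0.16 (edgeR adjusted p = 0.465). Sox2 was higher, at 438, 535 and 607 CPM in Stage1 and 768, 884 and 865 CPM in iPSC (log2 fold change 0.67 ± 0.144 SE, edgeR adjusted p = 0.00126).

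Among the genes that rose were Tdgf1, Dppa5a, Lin28a and Dppa4. Tdgf1, the co-receptor of Nodal, was at 1184, 634 and 716 CPM in Stage1, highest in replicate 1, and at 3817, 2706 and 2840.4 CPM in iPSC (log2 fold change 1.89 ± 0.246 SE, edgeR adjusted p = 1.33e-05). Dppa5a, an RNA-binding protein gene of early embryos whose reads may be shared with near-identical copies, was at 135, 207 and 169 CPM in Stage1 and 1045, 889.8 and 944 CPM in iPSC (log2 fold change 2.5 ± 0.226 SE, edgeR adjusted p = 2.05e-07). Lin28a, which blocks maturation of let-7 microRNAs, was at 90.6, 146 and 139 CPM in Stage1 and 328, 355 and 304 CPM in iPSC (log2 fold change 1.39 ± 0.164 SE, edgeR adjusted p = 8.04e-06). None of the 3 had overlapping groups, and Stage2 means were 2283, 654 and 296 CPM. Genes that fell included Tdh, L1td1, Trim71, Zscan10 and Sall4. Tdh, the threonine dehydrogenase on which mouse pluripotent cells depend, went from 598, 703 and 642 CPM to 265, 226 and 180.0 CPM (log2 fold change -1.53 ± 0.174 SE, edgeR adjusted p = 2.69e-06). L1td1, an RNA-binding protein gene derived from a retrotransposon, went from 939 ± 109 to 456 ± 109.6 CPM (SD, n = 3). All 5 higher calls held in every fit without 1 library, and of the 6 lower calls 2 did (Tdh and L1td1), the count being 3 without Stage1 replicate 2 or 3 or iPSC replicate 1 or 3.

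**Figure D3:**
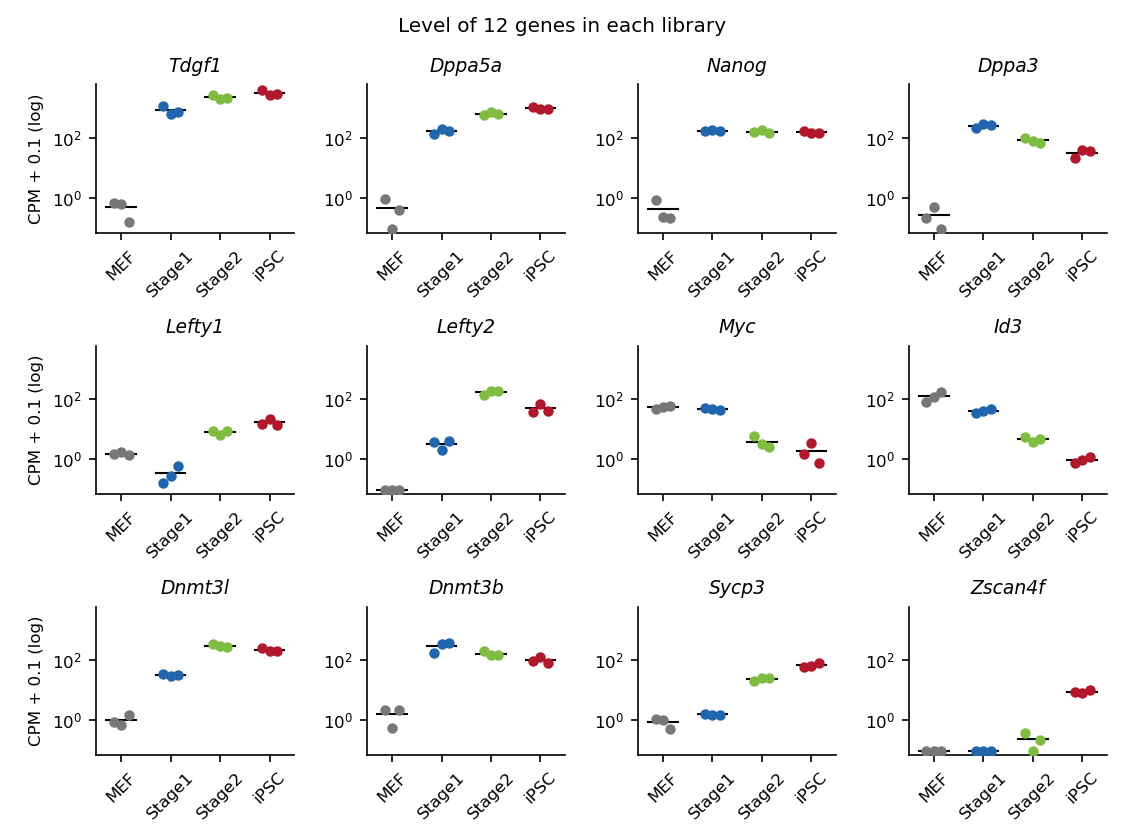
Points give the level (CPM + 0.1, log axis) of 12 genes in each of the 12 libraries, 3 per group, and bars the group means. Nanog was not called, Dppa3, Myc, Id3 and Dnmt3b are lower in iPSC, Tdgf1, Dppa5a, Lefty1, Lefty2, Dnmt3l and Sycp3 are higher, and Zscan4f has no read in Stage1.

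Naive markers did not move as 1 block. Of 16 tested, 4 were higher (Klf5, Tcl1, Fgf4 and Gbx2) and 6 lower (Dppa3, Tfap2c, Tfcp2l1, Nr0b1, Nr5a2 and Sox15), with a median of -0.30. Above 20 and up to 100 CPM, where the list's median member lay, 15.8% of all genes were higher and 26.7% lower. Dppa3 (Stella), a maternal factor that shields DNA from demethylation and is also a primordial germ cell marker, was at 210.5, 302 and 267 CPM in Stage1 and 21.2, 39.7 and 36.5 CPM in iPSC (log2 fold change -3.0 ± 0.256 SE, edgeR adjusted p = 1.37e-07). Tfap2c, a factor of germ cells and trophoblast, went from 117, 112 and 129 CPM to 33.4, 31.7 and 26.2 CPM (log2 fold change -1.97 ± 0.175 SE, edgeR adjusted p = 4.34e-07). Groups were far apart in both, and Stage2 lay between at 83.8 ± 17.0 and 54.6 ± 12 CPM. Tcl1, a co-activator of Akt, rose from 11.2 ± 0.905 to 47.1 ± 5.76 CPM (log2 fold change 2.07 ± 0.197 SE, edgeR adjusted p = 3.54e-07). Esrrb, Klf2, Klf4, Tbx3 and Prdm14 were not called, with log2 fold changes of -0.52 to 0.31, although Klf4 and Klf2 were called lower when only the 6 libraries entered the fit (edgeR adjusted p = 0.00313 and 0.0238). The calls that held in every fit without 1 library were Tcl1, Fgf4, Dppa3 and Tfap2c. Higher calls numbered 2 without Stage1 replicate 1 or iPSC replicate 2, and lower calls 3 without Stage1 replicate 2 or 3 or iPSC replicate 3.

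Formative and primed markers were mostly low in both groups. Of 14 tested, 5 were higher in iPSC and 3 lower (median 0.31). Above 5 and up to 20 CPM, where the list's median member lay, 27.2% of all genes were higher and 16.2% lower. Pou3f1 (Oct6) was at 0.83, 0.716 and 0.505 CPM in Stage1 and 5.54, 5.49 and 5.7 CPM in iPSC (log2 fold change 3.0 ± 0.443 SE, edgeR adjusted p = 4.41e-05). Tcf15, a factor of cells preparing to leave the naive state, was at 1.11, 1.79 and 1.6 CPM in Stage1 and 17.3, 17.4 and 10.2 CPM in iPSC (log2 fold change 3.33 ± 0.354 SE, edgeR adjusted p = 2.88e-06). Stage2 lay between the groups for both, at 3.76 ± 0.678 and 7.94 ± 2.11 CPM. Sall2 and Lef1 rose as well, to 4.88 and 10.1 CPM in iPSC. Sox3 had 1 read in Stage1 and 25 in iPSC, a ratio of 24.6 with 95% counting limits of 4.03 and 1010.0. Wnt8a fell from 25, 13.6 and 13.6 CPM to 1.09, 1.25 and 0.17 CPM (log2 fold change -4.34 ± 0.489 SE, edgeR adjusted p = 5.32e-06), and Foxd3 from 11.8 to 4.44 CPM. Fgf5 and Otx2, classical primed markers, were not called. The Stage1 and iPSC means were 0.21 and 0.277 CPM for Fgf5 and 4.65 and 7.93 CPM for Otx2. At Stage2 they were at 12, 9.32 and 9.58 CPM and 58.6, 56.0 and 52.4 CPM, above every iPSC library. All 8 calls of the list held in every fit without 1 library, and Otx2 was called higher without Stage1 replicate 2 (1.19, edgeR adjusted p = 0.0247).

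Of the 4 classical reprogramming factor genes, Sox2 was higher, Myc lower, and Pou5f1 and Klf4 not called. Myc, a driver of growth, was at 52.0, 46.0 and 42.8 CPM in Stage1, near the MEF mean of 53.3 CPM, and at 1.43, 3.33 and 0.681 CPM in iPSC (log2 fold change -4.64 ± 0.375 SE, edgeR adjusted p = 7.08e-08). Without iPSC replicate 2, the highest iPSC library, its log2 fold change was -5.46. The Stage2 libraries had 5.77, 3.03 and 2.4 CPM, and their difference from iPSC was not called (edgeR adjusted p = 0.113). Reads were counted by gene symbol, and whether they include introduced copies of these 4 genes was not tested.

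In the fit of all 12 libraries, genes of the Nodal and Activin pathway moved up or did not pass the test. Of 22 tested, 11 were higher and 0 lower by edgeR (0 lower by DESeq2, and 1, Acvr2a, at an unadjusted p under 0.05), with a median of 0.88. The list's median member was at 17.0 CPM, and above 5 and up to 20 CPM 27.2% of all genes were higher and 16.2% lower. Nodal is a ligand of the TGF-beta family that needs Tdgf1 as co-receptor, signals through Smad2 and Smad3, and induces its own inhibitors Lefty1 and Lefty2. Among ligands, Nodal was at 7.61, 9.22 and 8.0 CPM in Stage1 and 25.3, 23.3 and 16.6 CPM in iPSC (log2 fold change 1.39 ± 0.232 SE, edgeR adjusted p = 0.000217). Inhbb, which encodes an Activin subunit, rose from 11.5 ± 5.52 to 44.9 ± 6.87 CPM, and Inhba from 0.231 ± 0.0995 to 1.41 ± 0.525 CPM (SD, n = 3). None of the 4 receptor genes tested (Acvr1b, Acvr1c, Acvr2a and Acvr2b) passed the test, although Acvr1b was called higher without Stage1 replicate 1 or with only the 6 libraries compared (edgeR adjusted p = 0.0246 and 0.036), and Acvr2a lower without MEF replicate 2 or with only the 6 libraries (edgeR adjusted p = 0.0464 and 0.0492). Of the signal carriers, Smad3 was higher (log2 fold change 1.20 ± 0.161 SE, edgeR adjusted p = 1.59e-05), and Smad2 and Smad4 were not called. All 11 calls held in every fit without 1 library.

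The inhibitors that the pathway induces had the largest rises of the list. Lefty1 (chromosome 1, 180935022 to 180938401, mm10) was at 0.0692, 0.179 and 0.505 CPM in Stage1 and at 14.9, 22.4 and 13.8 CPM in iPSC (log2 fold change 6.08 ± 0.444 SE, edgeR adjusted p = 1.67e-08), with 7.07 without Stage1 replicate 3. Lefty2 was at 3.67, 1.88 and 3.96 CPM in Stage1 and 36.7, 70.8 and 40.1 CPM in iPSC (log2 fold change 3.94 ± 0.301 SE, edgeR adjusted p = 1.25e-07). Neither gene had overlapping groups, which for Lefty1 follows from the rule that named it, and Stage2 stood differently in the 2 genes. For Lefty1 the Stage2 libraries, at 8.31, 6.21 and 8.61 CPM, lay below iPSC, and for Lefty2, at 136, 189.8 and 189 CPM, they lay above. The feedback genes Smad7 and Skil rose from 22.1 ± 3.75 and 92.8 ± 22.7 to 47.9 ± 7.17 and 319 ± 44.0 CPM (SD, n = 3). With a test against a fold of 2, 7 of the 22 genes stayed called.

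BMP genes split by member. Of 14 tested, 7 were higher and 3 lower (median 0.51). Above 5 and up to 20 CPM, where the list's median member lay, 27.2% of all genes were higher and 16.2% lower. Bmp7 rose from 0.899, 0.806 and 0.758 CPM to 7.31, 5.76 and 8.51 CPM (log2 fold change 3.11 ± 0.516 SE, edgeR adjusted p = 0.000139), the inhibitory Smad6 from 1.55 ± 0.407 to 14.6 ± 4.52 CPM, and Bambi, a decoy receptor, from 2.3 ± 0.3 to 10.4 ± 1.1 CPM. Id proteins block differentiation factors and are the best known BMP targets in mouse pluripotent cells. Here the 4 Id genes did not go together. Id1 was higher (log2 fold change 1.64 ± 0.449 SE, edgeR adjusted p = 0.00785), at 0.761, 1.88 and 2.78 CPM in Stage1 and 6.3, 5.97 and 4.34 CPM in iPSC. Id3 was lower (log2 fold change -5.49 ± 0.319 SE, edgeR adjusted p = 1.53e-09), at 34.0, 38.9 and 45.6 CPM in Stage1 and 0.672, 0.833 and 1.11 CPM in iPSC. Id2 was also lower, at a mean of 13.9 against 6.84 CPM, and Id4 was not called. MEF held 80.4, 118 and 173 CPM of Id3. Of the 10 calls, 5 higher and 1 lower (Id3) held in every fit without 1 library, and without iPSC replicate 1 the lower calls numbered 1.

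Most called genes of the FGF and ERK pathway were lower in iPSC, 10 of 20 tested against 4 higher (median -0.61). Their median member was at 14.4 CPM, and above 5 and up to 20 CPM 27.2% of all genes were higher and 16.2% lower. FGF4 made by pluripotent cells drives ERK signalling, whose feedback inhibitors (Spry, Spred, Dusp) and transcription targets (Etv, Egr1) are widely used as its readout. The ligand gene Fgf4 rose from 179, 204 and 191 CPM to 359, 317 and 367 CPM (log2 fold change 0.86 ± 0.175 SE, edgeR adjusted p = 0.000828), and its receptor genes Fgfr1 and Fgfr2 fell, from means of 46.7 and 21.2 CPM to 30.7 and 7.51 CPM. Ligand and receptors thus moved in opposite directions. Of the feedback genes, Spry2 was at 62.2, 61.3 and 66.8 CPM in Stage1 and 21.7, 28.1 and 17.2 CPM in iPSC (log2 fold change -1.50 ± 0.219 SE, edgeR adjusted p = 3.75e-05), with Spry4, Spred1 and Dusp6 also lower (log2 fold changes of -1.14, -0.70 and -0.76). Spry1 went the other way, from 5.37 ± 0.832 to 13.8 ± 0.877 CPM. Egr1 was at 16.3, 21.1 and 20.4 CPM in Stage1 and 0.924, 1.11 and 1.19 CPM in iPSC (log2 fold change -4.15 ± 0.342 SE, edgeR adjusted p = 6.91e-08), and Etv5 at 199.5 ± 11.5 and 93.4 ± 13.8 CPM. Dusp4, Spred2 and Etv4 were not called. Dusp4 was called lower by DESeq2 and, with only the 6 libraries in the edgeR fit, Dusp4 was lower (-0.58, edgeR adjusted p = 0.00878) and Etv4 higher (0.54, edgeR adjusted p = 0.00481), as in fits without MEF replicate 3. All 14 calls held in every fit without 1 library. With a test against a fold of 2, 3 of the 20 genes stayed lower.

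Egr1 is also an immediate early gene, and of 15 such genes tested 4 were higher (Jund, Ier3, Dusp1 and Klf6) and 4 lower (Egr1, Fosb, Jun and Ier2). Above 5 and up to 20 CPM, where the list's median member lay, 27.2% of all genes were higher and 16.2% lower. Fosb was at 13.4, 4.03 and 2.7 CPM in Stage1, highest in replicate 1, and 1.18, 0.556 and 0.425 CPM in iPSC. Dusp1 was at 7.54, 8.24 and 6.32 CPM in Stage1 and 24.8, 26.3 and 26.1 CPM in iPSC. All but Ier2 held their call in every fit without 1 library. Dusp9, an ERK phosphatase of pluripotent cells encoded on the X chromosome, was added to the genes reported after its values were seen. It was at 5.19, 10.1 and 9.1 CPM in Stage1 and 93.0, 96.9 and 89.4 CPM in iPSC (log2 fold change 3.53 ± 0.261 SE, edgeR adjusted p = 1.89e-08).

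LIF pathway genes that passed the test were more often higher than lower, 6 against 3 of 14 (median 0.07). Above 20 and up to 100 CPM, where the list's median member lay, 15.8% of all genes were higher and 26.7% lower. LIF holds mouse cells in the naive state through its receptor Lifr, the shared subunit Il6st (gp130), Jak1 and Stat3. Socs3, the feedback inhibitor of this pathway, was at 47.6, 51.0 and 59.7 CPM in Stage1 and 183, 163 and 156 CPM in iPSC (log2 fold change 1.67 ± 0.191 SE, edgeR adjusted p = 2.88e-06). Pim1 and Pim3, kinase genes induced by Stat3, rose from 30.4 and 26.0 CPM to 63.5 and 85.9 CPM. Lifr was higher and Il6st lower, with log2 fold changes of 0.95 and -0.55, and Stat3 itself was not called (0.23 ± 0.173 SE). Tfcp2l1, which belongs to the naive list too, and Socs2 were lower. The calls of Tfcp2l1 and Gbx2 did not hold in every fit without 1 library (highest edgeR adjusted p = 0.0602 and 0.128).

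Wnt pathway members were mixed, with 5 higher and 7 lower of 22 tested (median -0.28). Above 5 and up to 20 CPM, where the list's median member lay, 27.2% of all genes were higher and 16.2% lower. The repressor Tcf7l1 (Tcf3), which holds back pluripotency genes, fell from 12.9, 6.54 and 8.59 CPM to 2.44, 3.54 and 2.04 CPM (log2 fold change -1.80 ± 0.358 SE, edgeR adjusted p = 0.000696). Its relatives Lef1 and Tcf7 rose, from 1.94 and 6.52 CPM to 10.1 and 12.5 CPM. With Tcf7l2, which fell, 2 of the 4 Tcf/Lef genes rose and 2 fell. The target genes Axin2 and Cdx1 were not called, with Axin2 called lower without Stage1 replicate 1 (-0.92) or MEF replicate 2, and Sp5 was lower, at 2.0 and 0.233 CPM. All 5 higher calls and 4 of the 7 lower calls held in every fit without 1 library, and without iPSC replicate 1 the lower calls numbered 4.

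**Figure D4:**
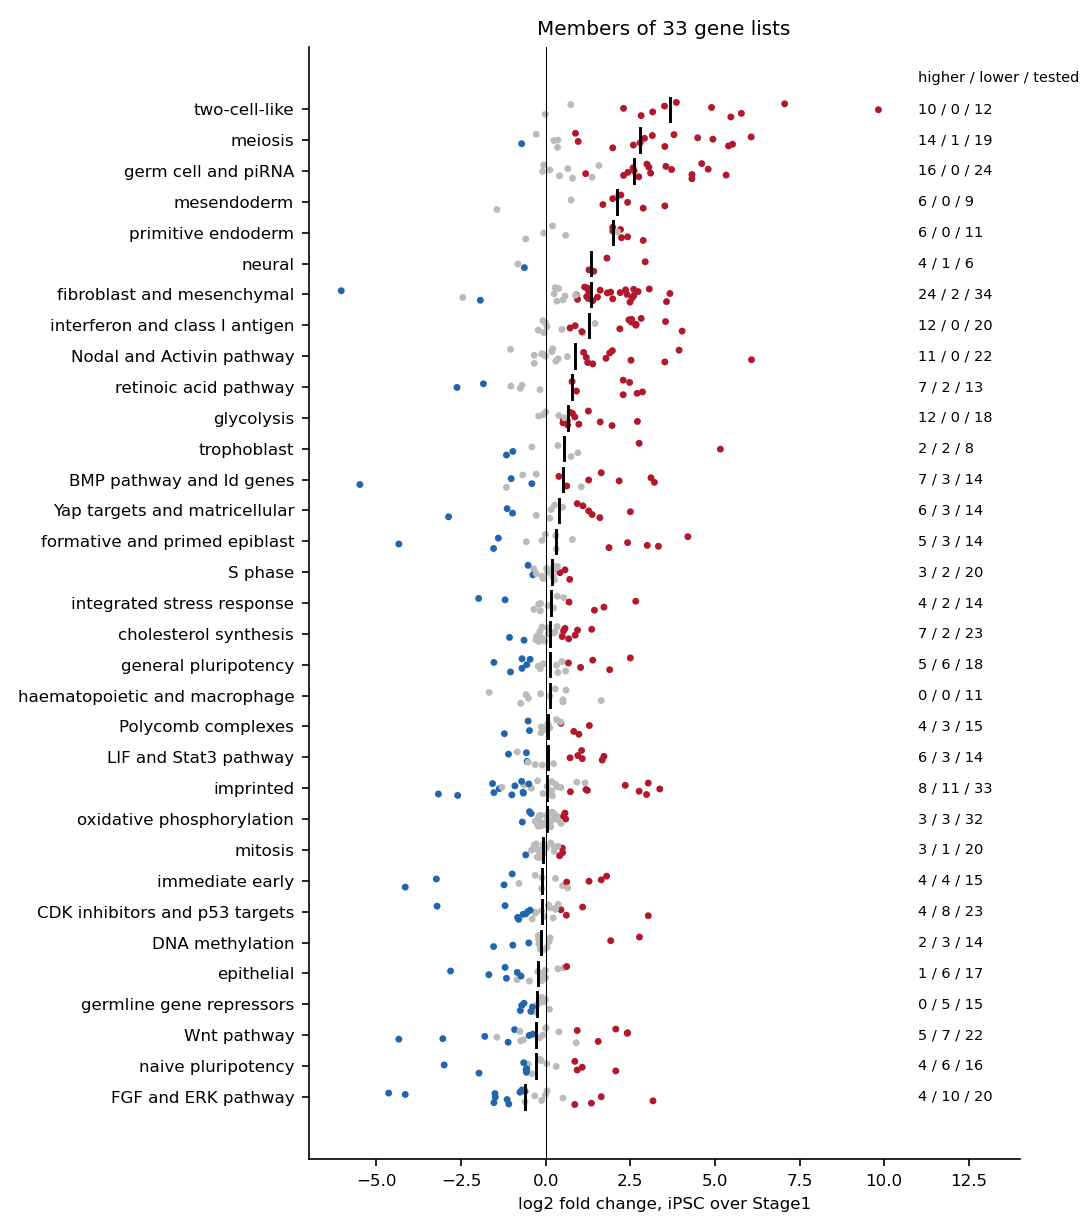
Each point is a tested gene of 1 of 33 lists, placed by its log2 fold change, iPSC over Stage1; red and blue mark genes called higher and lower, grey those not called, and black bars list medians. Numbers at the right give genes higher, lower and tested; the 2-cell, meiosis and germ cell lists have the highest medians (3.68, 2.79 and 2.60) and the FGF and ERK list the lowest (-0.61).

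Among 14 genes of DNA methylation tested, 2 were higher and 3 lower, with the largest changes in the de novo methyltransferase genes. Above 100 CPM, where the list's median member lay, 9.99% of all genes were higher and 32.5% lower. Dnmt3a and Dnmt3b write new methylation, Dnmt3l is their cofactor without own activity, Dnmt1 and Uhrf1 copy it at replication, and Tet enzymes oxidise it. Dnmt3l (chromosome 10, 78042287 to 78063622, mm10) was at 33.6, 30.3 and 32.0 CPM in Stage1 and 246, 205 and 205 CPM in iPSC (log2 fold change 2.77 ± 0.168 SE, edgeR adjusted p = 2.5e-09). Dnmt3a was at 40.5, 28.9 and 29.5 CPM in Stage1 and 108, 152 and 114 CPM in iPSC (log2 fold change 1.92 ± 0.224 SE, edgeR adjusted p = 3.76e-06). Dnmt3b went the other way, from 178, 352 and 363 CPM to 94.3, 131 and 82.3 CPM (log2 fold change -1.54 ± 0.299 SE, edgeR adjusted p = 0.000906). The 2 that rose had reached 303 ± 45.2 and 107 ± 31.1 CPM at Stage2. Uhrf1 and Tet2 were lower, with log2 fold changes of -0.50 and -0.97, and Dnmt1 and Tet1 were not called (-0.11 ± 0.15 and -0.21 ± 0.217 SE). Uhrf1 alone of the 5 lost its call in fits without 1 library (highest edgeR adjusted p = 0.122). Methylation itself was not measured in these libraries.

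Genes of meiosis and of germ cells that passed the test were nearly all higher in iPSC. Of 19 meiosis genes tested out of 22 listed, 14 were higher in iPSC and 1, Tex15, lower (median 2.79). Of 24 germ cell and piRNA genes tested out of 28 listed, 16 were higher and 0 lower by edgeR (0 by DESeq2 and 0 at an unadjusted p under 0.05), with a median of 2.60. The genes not tested were Spo11, Tex12, Rad21l, Tdrd6, Nanos2, Nanos3 and Tuba3b. For comparison, 21.3% of all genes and 35.4% of those above 1 and up to 5 CPM were called higher. The lists were chosen with earlier results of these data known, so their excess over these shares is no independent support. The meiosis list summed to 176 to 232 CPM in Stage1 and 559.6 to 672 CPM in iPSC, and the germ cell list to 70.7 to 89.1 and 319 to 342 CPM. In every fit without 1 library, 12 of the 14 and 14 of the 16 higher calls held, and those of Rec8, Hormad2, Tdrd5 and Asz1 and the lower call of Tex15 did not.

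Genes of the synaptonemal complex, which holds paired chromosomes together, were among them. Sycp3 (chromosome 10, 88459587 to 88473236, mm10) was at 1.59, 1.43 and 1.43 CPM in Stage1 and 59.1, 65.3 and 82.4 CPM in iPSC (log2 fold change 5.52 ± 0.255 SE, edgeR adjusted p = 1.11e-10). Syce1 and Sycp2 rose from 2.4 and 0.831 CPM to 32.8 and 6.44 CPM, while Syce2 was at 75.3 CPM in Stage1 already and was not called. Of the meiotic cohesins, Smc1b was at 1.66, 2.87 and 2.61 CPM in Stage1 and 70.9, 61.8 and 84.6 CPM in iPSC (log2 fold change 4.94 ± 0.323 SE, edgeR adjusted p = 6.86e-09). All Stage2 libraries exceeded iPSC for Smc1b, at 118, 115 and 129.9 CPM, and Stag3 went from 15.3 ± 0.778 to 92.5 ± 4.92 CPM. The groups of both were far apart. Stra8, which starts meiosis in response to retinoic acid, was at 0.277, 0.269 and 0.253 CPM in Stage1 and 19.5, 18.9 and 17.3 CPM in iPSC (log2 fold change 6.07 ± 0.399 SE, edgeR adjusted p = 1.77e-08), and its Stage2 libraries had 2.64, 1.41 and 1.55 CPM. Stage2 was thus below iPSC for Stra8 (iPSC against Stage2: log2 fold change 3.33, edgeR adjusted p = 1.88e-05).

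Germ cell regulators followed the same direction. Ddx4 (Vasa), an RNA helicase of germ cells, was at 1.25, 2.24 and 2.36 CPM in Stage1 and 47.5, 62.2 and 51.5 CPM in iPSC (log2 fold change 4.8 ± 0.282 SE, edgeR adjusted p = 1.73e-09). Dazl, an RNA-binding protein of germ cells, went from 0.899, 1.07 and 0.758 CPM to 18.3, 17.2 and 19.5 CPM (log2 fold change 4.32 ± 0.353 SE, edgeR adjusted p = 6.38e-08), and Mael, of the piRNA pathway, from 0.554, 0.448 and 0.337 CPM to 21.3, 13.3 and 21.2 CPM (log2 fold change 5.33 ± 0.355 SE, edgeR adjusted p = 2.02e-08). The lowest iPSC library was far above the highest Stage1 library in all 3. Tex14 was at 3.86 ± 0.743 and 78.1 ± 12.9 CPM. Not all piRNA genes took part. Piwil2 and Tdrd12 were at 26.8 and 14.1 CPM in Stage1 and at 25.1 and 18.7 CPM in iPSC, and neither was called. Piwil4 and Piwil1 were not called either, at iPSC means of 1.77 and 0.951 CPM. Reads of Tuba3a may be shared with its near-identical copy Tuba3b.

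**Figure D5:**
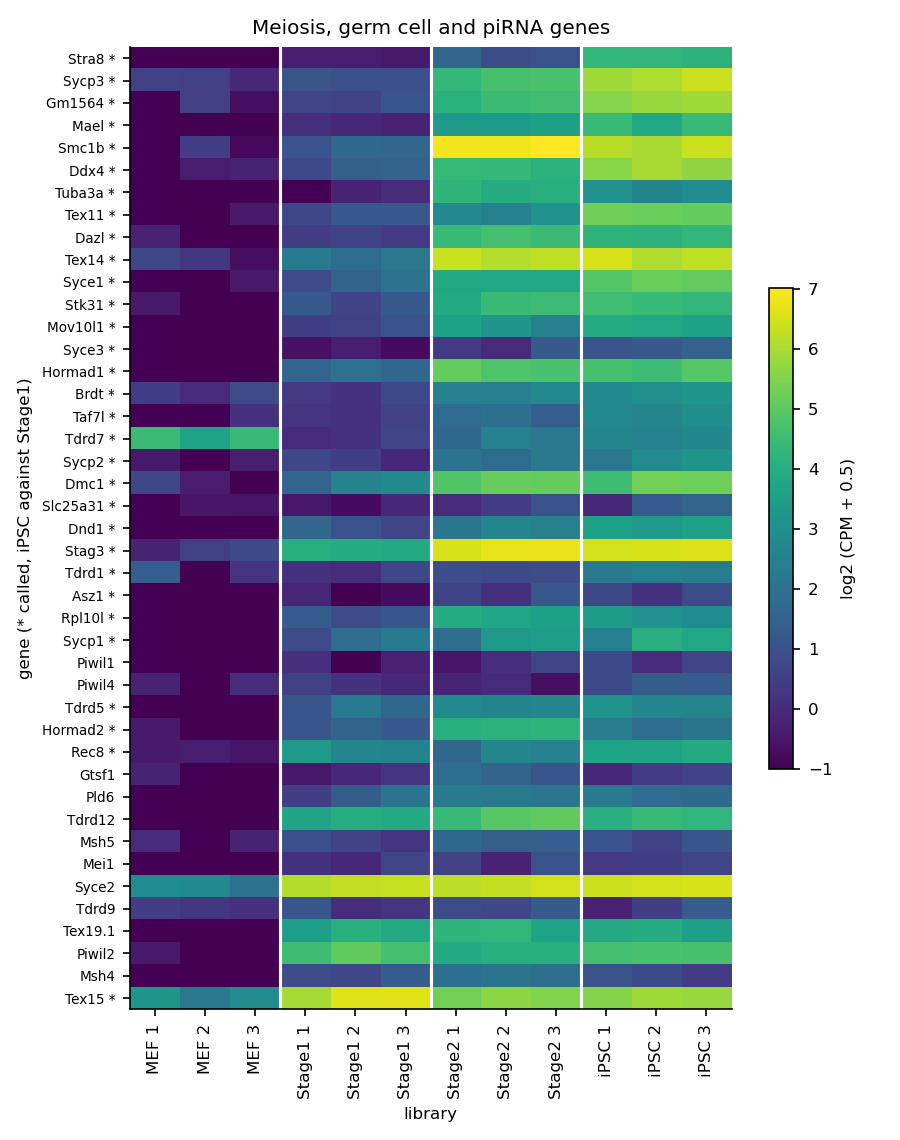
Colour gives log2 (CPM + 0.5) of the 43 tested meiosis, germ cell and piRNA genes (rows, sorted by log2 fold change, iPSC over Stage1) in the 12 libraries (columns); an asterisk marks genes called between iPSC and Stage1. Sycp3, Smc1b and many other rows are dark in MEF and Stage1 and bright in Stage2 and iPSC, Stra8 is bright in iPSC alone, and Syce2 and Tex15 are bright in Stage1 already.

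Some germ line promoters carry the E-box CACGTG, a palindrome, or the E2F core GCGGGA, sequences by which repressor complexes with Mga, Max and E2f6 are known to bind. The reverse complement of the core, TCCCGC, was searched as well, and core and E-box can share at most 1 base. Promoters of 39 of the tested members were matched by symbol in RefSeq (GRCm38.p6), as 250 bases before and 50 after 1 start per gene, the most upstream in the table, which is not always the outermost start of the gene. An E-box was present in 12 of the 28 that were called higher (42.9%) and in 15 of the 39 (38.5%), against 10.2% of 11522 tested genes with a promoter. Over all genes called higher the share was 8.23%, and over all called lower 13.9%. The E2F core was in 53.6% of the 28, against 35.4% of all. The 4 sequences below show both kinds, with the 250 bases before the start, 5′ to 3′ on the gene's strand and E-boxes and E2F cores in capitals. Sycp3 (chr10:88459337-88459586, plus strand) and Hormad1 (chr3:95559427-95559676, plus strand) hold 2 E-boxes and 1 core each, Mael (chr1:166238745-166238994, minus strand) 1 of each, and Dazl (chr17:50293621-50293870, minus strand) neither.
Sycp3: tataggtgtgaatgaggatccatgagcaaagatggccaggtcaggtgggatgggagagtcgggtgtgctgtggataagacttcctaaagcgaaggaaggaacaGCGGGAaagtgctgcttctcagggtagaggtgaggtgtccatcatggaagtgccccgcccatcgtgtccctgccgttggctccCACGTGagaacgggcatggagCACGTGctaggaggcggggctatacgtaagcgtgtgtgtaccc
Hormad1: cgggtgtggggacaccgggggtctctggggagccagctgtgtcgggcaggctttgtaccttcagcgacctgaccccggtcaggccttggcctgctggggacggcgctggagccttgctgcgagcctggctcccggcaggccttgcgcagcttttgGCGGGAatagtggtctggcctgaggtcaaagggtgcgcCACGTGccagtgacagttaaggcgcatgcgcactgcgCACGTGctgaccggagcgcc
Mael: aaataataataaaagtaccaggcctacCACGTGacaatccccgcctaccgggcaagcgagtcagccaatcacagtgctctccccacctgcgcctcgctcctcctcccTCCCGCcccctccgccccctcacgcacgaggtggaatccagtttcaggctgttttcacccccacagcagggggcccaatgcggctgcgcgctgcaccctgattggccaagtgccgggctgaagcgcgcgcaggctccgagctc
Dazl: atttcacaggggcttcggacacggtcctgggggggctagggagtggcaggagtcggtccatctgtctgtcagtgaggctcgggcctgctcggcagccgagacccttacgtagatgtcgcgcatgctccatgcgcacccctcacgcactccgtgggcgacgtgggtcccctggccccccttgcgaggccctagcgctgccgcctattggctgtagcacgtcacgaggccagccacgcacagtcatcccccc
Hormad1, which marks unpaired meiotic chromosome axes, was at 2.56, 3.49 and 2.61 CPM in Stage1 and 25.1, 22.3 and 29.4 CPM in iPSC (log2 fold change 3.15 ± 0.236 SE, edgeR adjusted p = 7.74e-08). The other 3 members with an E-box were not called. A match of letters is a description of the window and no measure of binding.

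The genes of those repressors were measured as well. Of 15 tested, 5 were lower (Tfdp1, Cbx3, Hdac1, Atf7ip and Ehmt1) and 0 higher by edgeR (0 by DESeq2 and 0 at an unadjusted p under 0.05), with a median of -0.25. Tfdp1, the partner of E2F proteins, was at 143, 159 and 146 CPM in Stage1 and 94.3, 92.6 and 79.1 CPM in iPSC (log2 fold change -0.75 ± 0.138 SE, edgeR adjusted p = 0.000353), and Hdac1, a histone deacetylase, at 192 ± 18.7 and 123 ± 12 CPM. The other 3 had log2 fold changes of -0.71 to -0.39. Mga, Max, Pcgf6 and E2f6 were not called, with log2 fold changes of -0.34 to -0.17, although Pcgf6 was called lower when only the 6 libraries entered the fit (edgeR adjusted p = 0.0209). The median member was at 112 CPM. Of all genes above 20 and up to 100 CPM 26.7% were lower and of those above 100 CPM 32.5%, beside the list's 5 of 15. Calls of Tfdp1, Atf7ip and Ehmt1 held in every fit without 1 library, and without Stage1 replicate 3 or iPSC replicate 3 they were the 3 left.

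Genes of the 2-cell embryo, which are known to be active in a small and changing fraction of pluripotent cells, were nearly absent from Stage1. Of 12 tested out of 21 listed, 10 were higher in iPSC and 0 lower by edgeR (0 by DESeq2 and 0 at an unadjusted p under 0.05). Their median was 3.68, also with the 2 genes without a Stage1 read at their bound. Their sum was 3.49 to 5.98 CPM in Stage1 and 37.8 to 50.6 CPM in iPSC. Zscan4f had no read in any Stage1 library and 8.32, 8.26 and 9.87 CPM in iPSC, which makes it at least 110.0-fold higher against a floor of 3 counts over the group. Zscan4e was at least 16.1-fold higher by the same floor. Zscan4a, Zscan4c and Zscan4d reached 7.61, 5.14 and 3.44 CPM in iPSC. These copies are near-identical and lie side by side on chromosome 7, so how the counting split reads between them is uncertain. At Stage2 Zscan4f was at 0.293, 0 and 0.129 CPM, below every iPSC library. Tcstv1, Tcstv3, Zfp352, Usp17lc and Usp17le were also higher, at 1.18 to 2.5 CPM in iPSC. Dux, which switches this programme on, was at 2.01, 0.985 and 1.09 CPM in Stage1 and 1.85, 0.833 and 1.45 CPM in iPSC and was not called. Neither was Sp110, and the calls of Zfp352 and Usp17le did not hold in every fit without 1 library (highest edgeR adjusted p = 0.0526 and 0.157).

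Most markers of early lineages were low in both groups, apart from some primitive endoderm genes, and those called were mostly higher in iPSC. Of 9 mesendoderm genes tested, 6 were higher and 0 lower by edgeR (0 by DESeq2, and 1 at an unadjusted p under 0.05). Their list summed to 10.5 to 14.1 CPM in Stage1 and 23.1 to 29.7 CPM in iPSC. The endoderm factors Gata6 and Gata4 had iPSC means of 3.03 and 1.8 CPM and Stage1 means of 0.779 and 0.224 CPM. Of 11 primitive endoderm genes, which share these 2 and Sox17 with it, 6 were higher and 0 lower by edgeR (0 by DESeq2, and 1, Lama1, at an unadjusted p under 0.05). The laminin gene Lamb1 was the most abundant of those that rose, from 22.3, 41.6 and 42.5 CPM to 159, 168 and 163 CPM (log2 fold change 2.21 ± 0.205 SE, edgeR adjusted p = 2.68e-07), while Lama1, at 169.9 ± 5.58 and 113 ± 3.32 CPM, was called lower only in fits without all MEF libraries or without MEF replicate 2 or 3 (edgeR adjusted p = 0.00011 with the 6 libraries compared). Of 6 neural genes 4 were higher (Sox1, Pax6, Tubb3 and Ncam1) and Nes lower, with Sox1 at 1.84 ± 1.46 and 14.6 ± 1.13 CPM. Trophoblast genes were split, 2 higher (Krt7 and Ascl2) and 2 lower (Krt8 and Tead4) of 8, and Cdx2 and Elf5 were too low to test. Calls lost in at least 1 fit without 1 library were those of Sox17, Gsc, Hhex, Pax6, Krt8 and Tead4. The part of differentiating cells in these values was not tested.

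Fibroblast genes, silenced early in reprogramming, were higher in iPSC than in Stage1. Of 34 tested, 24 were higher and 2, Dcn and Lum, lower, with a median of 1.33, also with Lum at its bound. All but 2 of the 24 held in every fit without 1 library (Col6a2 and Thy1 did not). The list summed to 1064 to 1157 CPM in iPSC, which was 1.42% of the MEF mean, against 0.855% in Stage1. The most abundant members were Fn1, Sparc and Vim, at 440.3, 79.4 and 72.9 CPM in Stage1 and 533, 184 and 162 CPM in iPSC. Fn1 was not called, except without Stage1 replicate 1 (0.62, edgeR adjusted p = 0.00495). The collagen gene Col1a1 was at 1.52, 1.61 and 1.26 CPM in Stage1 and 6.64, 8.47 and 9.78 CPM in iPSC (log2 fold change 2.49 ± 0.293 SE, edgeR adjusted p = 3.93e-06), and the matrix gene Postn at 0.899, 0.358 and 1.01 CPM in Stage1 and 10.2, 10.7 and 8.76 CPM in iPSC (log2 fold change 3.67 ± 0.371 SE, edgeR adjusted p = 7.13e-07). Lum had no read in iPSC and was at 0.208, 1.25 and 0.505 CPM in Stage1, at least 7.78-fold lower by the floor of 3 counts over the group. The factors of mesenchymal state Snai1, Snai2 and Twist2 were not called (Twist2 was lower without Stage1 replicate 3 or iPSC replicate 3), while Twist1 and Zeb1 were higher. With a test against a fold of 2, 13 of the 34 stayed higher. Whether few cells or many carried these reads, and their part in other results, was not tested.

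Epithelial genes, switched on early in reprogramming, that passed the test were mostly lower in iPSC. Of 17 tested, Tjp3 was higher and 6 lower (among them Crb3, Krt8, Esrp1, Rab25 and Dsp). The median member was at 19.7 CPM. Of all genes above 5 and up to 20 CPM 16.2% were lower, of those above 20 and up to 100 CPM 26.7%. Above 100 CPM 32.5% were lower, beside the list's 6 of 17. Esrp1, a splicing regulator of epithelia, was at 52.9, 45 and 46.4 CPM in Stage1 and 9.07, 17.2 and 18.9 CPM in iPSC (log2 fold change -1.68 ± 0.23 SE, edgeR adjusted p = 3.64e-05). Cdh1 and Epcam, the defining adhesion genes, were at 388 ± 7.62 and 309 ± 6.24 CPM in Stage1 and at 279 ± 37.3 and 264 ± 2.14 CPM in iPSC, and were not called. With only the 6 libraries in the fit Cdh1 was called lower (-0.45, edgeR adjusted p = 0.0021). Of the 7 calls, 2 held in every fit without 1 library, Esrp1 among them, and without iPSC replicate 1 the lower calls numbered 2. Of 11 macrophage genes 0 passed in either direction by edgeR (0 by DESeq2, and 1, Laptm5, lower at an unadjusted p under 0.05). Laptm5 was called lower without any 1 of the MEF libraries or with only the 6 libraries compared (-0.55, edgeR adjusted p = 0.00809). The macrophage list summed to 29.0 to 38 CPM in Stage1 and 25.6 to 33.2 CPM in iPSC.

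Genes of glycolysis were higher or not called, with 12 of 18 higher and 0 lower by edgeR (0 by DESeq2 and 0 at an unadjusted p under 0.05) and a median of 0.65. Above 100 CPM, where the list's median member lay, 9.99% of all genes were higher and 32.5% lower. Pluripotent cells take up much glucose and turn it to lactate. The glucose transporter gene Slc2a1 was at 254, 129 and 130.5 CPM in Stage1, highest in replicate 1, and at 645, 681 and 673 CPM in iPSC (log2 fold change 1.96 ± 0.238 SE, edgeR adjusted p = 6.59e-06). Slc2a3, the other transporter, was at 1933 ± 476 and 1670.5 ± 45.3 CPM and was not called. The enzyme genes Hk1, Pfkl, Aldoa, Tpi1, Pgk1 and Pkm had log2 fold changes of 0.65 to 1.61, with Aldoa at 1162, 611 and 529 CPM in Stage1 and 2066, 1665 and 1792 CPM in iPSC. Ldhb rose from 43.0, 20.8 and 19.5 CPM to 183, 158 and 208 CPM (log2 fold change 2.71 ± 0.238 SE, edgeR adjusted p = 1.52e-07), whereas Ldha was called only without Stage1 replicate 1 or with library totals. Of the 12 calls, those of Gapdh and Pgk1 did not hold in every fit without 1 library. With a test against a fold of 2, 3 of the 18 stayed higher. Of 32 oxidative phosphorylation genes 3 were higher and 3 lower (Ndufa5, Uqcrfs1 and Cycs, none of which held in every such fit), and of 23 cholesterol synthesis genes 7 were higher and 2 lower (Idi1 and Ebp).

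A smaller share of proliferation genes passed the test than the 39.5% of all genes. The median S phase and mitosis members were at 252 and 281 CPM, and of all genes above 100 CPM 9.99% were higher and 32.5% lower. Of 20 S phase genes 3 were higher (Mcm6, Gins2 and Pold1) and 2 lower (Rrm1 and Rrm2), and of 20 mitosis genes 3 were higher (Ccnb2, Bub1 and Ttk) and 1 lower (Cenpe). Mki67 was at 1284 ± 19.7 and 1082 ± 121 CPM and Top2a at 2239.8 ± 238 and 2663 ± 117 CPM (SD, n = 3), and neither was called. The S phase count rose to 9 higher when only the 6 libraries entered the fit and fell to 1 without Stage1 replicate 2 or 3, and of the 5 calls Rrm2 alone held in every fit without 1 library. Inhibitors of the cell cycle differed more. Cdkn2a, which encodes the p16 and p19 barriers to reprogramming, was at 11.3, 20.7 and 26.3 CPM in Stage1 and 1.68, 1.74 and 2.89 CPM in iPSC (log2 fold change -3.21 ± 0.31 SE, edgeR adjusted p = 4.14e-07), and at 53.1 CPM in MEF. Cdkn1c (p57), an imprinted gene, rose from 1.04, 1.52 and 1.35 CPM to 8.9, 11.3 and 11.5 CPM (log2 fold change 3.03 ± 0.324 SE, edgeR adjusted p = 1.32e-06). Over 23 CDK inhibitors and p53 targets 4 were higher and 8 lower, among them Trp53 itself and Cdkn1a (-0.67 ± 0.186 and -0.80 ± 0.263 SE). Of the 8, 4 held in every fit without 1 library, Trp53 and Cdkn1a not among them, and the count was 5 without Stage1 replicate 2, iPSC replicate 2 or iPSC replicate 3. The median member of these 23 was at 32.4 CPM, and above 20 and up to 100 CPM 15.8% of all genes were higher and 26.7% lower.

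Interferon response and class I antigen genes were higher or not called. Of 20 tested, 12 were higher and 0 lower by edgeR (0 by DESeq2 and 0 at an unadjusted p under 0.05), with a median of 1.27, and all 12 held in every fit without 1 library. Above 5 and up to 20 CPM, where the list's median member lay, 27.2% of all genes were higher and 16.2% lower. Class I molecules present peptides to T cells, with Psmb8, Psmb9 and Tap1 supplying the peptides. H2-K1 was at 12.3, 5.91 and 5.31 CPM in Stage1 and 36.3, 35.1 and 37.4 CPM in iPSC (log2 fold change 2.19 ± 0.262 SE, edgeR adjusted p = 4.7e-06). Tap1 was at 2.14, 0.537 and 0.168 CPM in Stage1 and 8.82, 4.65 and 5.53 CPM in iPSC (log2 fold change 2.66 ± 0.563 SE, edgeR adjusted p = 0.00117), and at 4.15 without Stage1 replicate 1. Groups were separate in both, although reads of H2-K1 and H2-D1 may be shared between related class I genes. The other 8 genes, among them Bst2, Isg15 and Ifit1, were not called. With a test against a fold of 2, 7 stayed higher.

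Imprinted genes, transcribed from 1 parental copy and sensitive to lost methylation, moved both ways, 8 higher and 11 lower of 33 tested. Above 5 and up to 20 CPM, where the list's median member lay, 27.2% of all genes were higher and 16.2% lower. Peg10 fell from 243, 198 and 238 CPM to 26.8, 45.1 and 39.4 CPM (log2 fold change -2.60 ± 0.205 SE, edgeR adjusted p = 4.19e-08) and Grb10 from 725, 554 and 548 CPM to 183, 223 and 227 CPM (log2 fold change -1.53 ± 0.184 SE, edgeR adjusted p = 5.14e-06). Plagl1 was uneven in Stage1, highest in replicate 1, at 27.8 ± 20.1 CPM (SD, n = 3), and at 2.52, 3.61 and 3.15 CPM in iPSC (log2 fold change -3.17 ± 0.404 SE, edgeR adjusted p = 1.11e-05), with -2.38 without Stage1 replicate 1. Phlda2, Slc22a18 and Ascl2, neighbours of Cdkn1c in a cluster on chromosome 7, rose with it, at iPSC means of 13.4, 2.86 and 7.18 CPM against 1.3, 0.548 and 1.08 CPM, while Kcnq1ot1, the non-coding RNA of that cluster, fell (-1.0 ± 0.197 SE). The maternal RNAs Meg3 and Rian of the Dlk1 cluster, whose loss marks poor iPSC lines, were at 69.7 ± 2.17 and 397 ± 37.8 CPM in Stage1 and 80.1 ± 13 and 407 ± 59.8 CPM in iPSC and were not called. Dlk1 itself was not called either (1.16, edgeR adjusted p = 0.222). Mirg and Rtl1, of the same cluster, were called lower, but neither call held in every fit without 1 library. Parental copies were not told apart here. In every fit without 1 library 6 of the 8 higher and 6 of the 11 lower calls held, and without iPSC replicate 1, 7 of the 33 were lower.

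Other lists changed in part, beside 21.3% of all genes higher and 18.2% lower. Of 13 retinoic acid genes 7 were higher and 2 lower, with the receptor gene Rara at 7.13, 5.28 and 6.49 CPM in Stage1 and 31.4, 33.6 and 27.7 CPM in iPSC (log2 fold change 2.29 ± 0.185 SE, edgeR adjusted p = 6e-08). The retinoic acid degrading enzyme gene Cyp26a1 was lower, at 2.65 against 0.421 CPM. Among 14 Yap targets and matricellular genes 6 were higher and 3 lower, with Tnc (2.5 ± 0.245 SE) among the former. Lats2, a kinase that restrains Yap, fell from 22.5, 22.7 and 26.8 CPM to 3.28, 3.54 and 2.98 CPM. Of 14 stress response genes 4 were higher and 2 lower, with Ddit3 at 8.37, 5.37 and 5.64 CPM in Stage1 and 34.6, 37.4 and 51.3 CPM in iPSC (log2 fold change 2.66 ± 0.254 SE, edgeR adjusted p = 3.68e-07) and its regulator Atf4 not called. Polycomb genes, 4 higher and 3 lower of 15, included Bmi1, which fell from 41 ± 1.02 to 17.5 ± 2.47 CPM, and Cbx2, which rose from 8.0 ± 0.742 to 19.6 ± 2.59 CPM. In every fit without 1 library, 5 of the 7 higher and both lower retinoic acid calls held, 4 of the 6 higher and all 3 lower Yap calls, all 6 stress response calls, and 3 of the 4 higher and 2 of the 3 lower Polycomb calls.

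Genes on the X chromosome had a lower median than those on any autosome. The median log2 fold change of 525 tested X-linked genes was -0.20, with 17.1% higher and 26.9% lower, while autosome medians ran from -0.11 to 0.13, with 21.5% of autosomal genes higher and 17.9% lower. X-linked genes took 3.79% ± 0.0115 of gene counts in Stage1 and 3.49% ± 0.137 in iPSC (SD, n = 3). The lowest library was iPSC replicate 1, at 3.33% against 3.55% and 3.58% in the others, and without it the X median was -0.14. The groups did not overlap, and the exact two-sided permutation p was 0.1, the smallest that 3 against 3 libraries can give. Xist, the RNA that silences an X chromosome, was at 3.18, 38.2 and 52.5 CPM in Stage1 and 4.45, 5.56 and 4.42 CPM in iPSC, with 1 low Stage1 library, and was not called (edgeR adjusted p = 0.346). The MEF libraries, at 227, 0.267 and 0 CPM, enter its estimate of spread, and without MEF replicate 1 it was called lower (edgeR adjusted p = 0.0223). Tsix, the antisense partner of Xist, was called higher (log2 fold change 1.27, edgeR adjusted p = 0.0204), a call lost in 4 fits without 1 library. Where Xist and Tsix overlap, their reads cannot be told apart without the strand setting, which is not given in the sources used here.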

How the data were processed

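RNA was sequenced from 12 libraries, 3 for each of the titles MEF, Stage1, Stage2 and iPSC. The authors deposited 1 file per library of raw read counts per gene symbol. The submitters' processing notes name TopHat2 2.0.9, Bowtie2 2.2.6, SAMtools 0.1.19, HTSeq 0.5.4p3, DESeq2 1.12.4 and the mm10 build, without their settings; the annotation version and strand setting are not given in the sources used here. If reads were counted without strand, overlapping and antisense genes share reads. Each file ended with 5 HTSeq summary rows, which were left out of library sizes and tests. The 45 Y-linked genes among 23420 were left out, which left 23375.

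Genes were filtered with filterByExpr by group, and 14762 were tested. Counts were scaled by TMM and fitted with edgeR 4.0.16 (R 4.3.3, limma 3.58.1, robust quasi-likelihood) over all 12 libraries in 1 model, the 4 groups sharing the estimate of the spread (common biological coefficient of variation 0.189). Adjusted p-values are Benjamini-Hochberg over all genes tested, and a gene was called below 0.05. CPM are TMM-scaled. The 95% intervals of log2 fold changes take the fit's SE and a normal approximation. A gene without a read in a group was set against a floor of 3 counts over that group, and counting intervals and floors cover counting error only. For 3 counts in 1 library the floor was 0.2085 to 0.273 CPM over the 6 libraries compared. Counts of replicates differed by more than sampling noise (chi-square per degree of freedom 4.79 to 20.4), so each was counted as 1 library. Simulated counts for this comparison covered 14762 genes, of which 200 were changed, all drawn from genes above 1 CPM in Stage1. In them 60% of 2-fold and 94% of 4-fold changes were recovered, and 1.91% of calls were unchanged genes. Recovery of genes nearly silent in Stage1 was not tested.

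Genes named are the 12 called genes per direction with the largest change that reached 10 CPM, did not overlap between groups and had a symbol other than a clone, predicted or small RNA name, the 6 per direction with the largest CPM difference at a fold of 2 or more, and members of 34 gene lists; a few of these genes are counted but not reported by name here. Members and lists were chosen with earlier results of these data known. Chromosomes and promoters were matched to RefSeq (GRCm38.p6, the assembly of mm10) by symbol for 21571 genes and by synonym for 1700. Alternatives were DESeq2 1.42.0, other scalings, filters and prior counts, a test against a fold of 2, fewer groups in the fit, a replicate block, and each library left out.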

Additional observations from a re-analysis of the deposited data

How the results depend on the processing

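Over 23 alternatives, no gene called in the main fit was called in the opposite direction. Genes higher and lower numbered 3368 and 2751 with DESeq2, 3251 and 2603 with RLE scaling, 3541 and 2027 with library totals, 3127 and 2278 without a filter, 3146 and 2700 at 1 CPM in 3 libraries, 3820 and 3394 with only the 6 libraries compared, 3858 and 3566 without MEF, and 3120 and 2760 without 129 structural RNA genes. A test against a fold of 2 left 1196 higher and 307 lower, since it asks for more than a difference. Leaving out 1 library gave 2479 to 3564 genes higher and 1948 to 3208 lower. The X chromosome median was -0.10 with library totals, which moved all genes up by 0.104, and -0.24 to -0.14 without 1 library. Of 1564 counts per list and alternative, 1420 lay within 1.5 times the main count. Uncalled genes near 0 changed sign. Dux was at 0.02 with DESeq2, 0.01 with RLE scaling, 0.09 with library totals, 0.03 without a filter and 0.00 with the 6 libraries, and at -0.27 to 0.40 without 1 library. Piwil2 was at 0.02 with library totals and at -0.19 to 0.08 without 1 library. The ranges without 1 library were -0.44 to 1.15 for Fgf5, -0.08 to 0.14 for Rian and -0.31 to 0.02 for Slc2a3; the cause was not tested. The replicate numbers are only numbers in the labels. With a replicate block, 3076 genes were higher and 2595 lower. Deviations of same-numbered iPSC and Stage1 libraries correlated at 0.0592, 0.135 and 0.108, so the numbers were not taken as pairs, although each library correlated best with its own number, which is a hint from the data. Depth limits genes near the floor of 3 counts (0.2085 to 0.273 CPM), whose fold changes are the least precise.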

Other observations

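Some gene families that were not lists of their own were picked after their values were seen. Of 39 Hox genes, which pattern the body axis, 27 were tested, and 1 (Hoxc13) was higher in iPSC and 13 were lower, with a median log2 fold change of -2.21. With the member that had no read in a group at its bound the median was -2.16. The lower calls leaned on 1 library: Stage1 replicate 1 was the highest Stage1 library in all 13. Without it 1 Hox gene was called lower and 1 higher, of 34 tested, and the median was -1.49. Hoxa9, for example, was at 13, 1.07 and 1.26 CPM in Stage1 and 0.504, 0.208 and 0.34 CPM in iPSC. The lower calls numbered 8 in each fit without 1 iPSC library. Of 31 Rhox genes, homeobox genes of reproductive tissues on the X chromosome, 4 were tested, and 1 (Rhox1, near the floor at means of 0.113 and 0.903 CPM) was higher and 3 lower. The higher call was lost without Stage1 replicate 1 or 3 or iPSC replicate 2. Rhox5 was at 44.9, 70.5 and 67.2 CPM in Stage1 and 11.8, 29.2 and 27.9 CPM in iPSC (log2 fold change -1.40 ± 0.271 SE, edgeR adjusted p = 0.000591), and Rhox6 at 42.6, 29.2 and 23.8 CPM in Stage1 and 1.85, 2.15 and 3.66 CPM in iPSC (log2 fold change -3.64 ± 0.397 SE, edgeR adjusted p = 3.74e-06). Both fell, as did Rhox9 (-1.67 ± 0.412 SE), whereas Lin28b, the relative of Lin28a, rose from 33.1, 28.3 and 24.2 CPM to 53.8, 84.7 and 67.1 CPM (log2 fold change 1.26 ± 0.192 SE, edgeR adjusted p = 9.58e-05).

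All 8 tested Oas genes, of a family named for enzymes that make the activator of an antiviral RNase, were higher in iPSC (median 2.75). Without Stage1 replicate 1 or 3 or iPSC replicate 2, 7 were called higher. Zinc finger genes with a Zfp symbol were lower more often than higher, 85 against 34 of 341, beside 18.2% lower and 21.3% higher over all genes, and without iPSC replicate 3 the lower calls numbered 52. Of 42 collagen genes 17 were higher and 2 lower, and of 7 Mage genes 5 were higher. Some collagen genes, Col1a1 and Col6a2 among them, also belong to the fibroblast list, so their calls are counted there as well.

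Genes called at least 2-fold higher sometimes lay side by side. Over all genes tested, 15.4% were called at least 2-fold higher and 5.8% at least 2-fold lower. Among tested genes in chromosome order there were 11 runs of at least 5 neighbours called at least 2-fold higher, and 0 such runs of genes at least 2-fold lower. They included Zscan4a to Zscan4f and Nfkbid to Gm1082 on chromosome 7, Dtx1 to Oas1a (7 genes, with the Oas1 copies) on chromosome 5, Psmb9 to H2-Ab1 (with Tap1, Psmb8 and Tap2) on chromosome 17, Aifm2 to Hk1 (7 genes) on chromosome 10, Hfe2 to Lix1l (6 genes, with Txnip) on chromosome 3, Bin2 to Acvrl1 (6 genes) on chromosome 15 and Tcstv1 to Tcstv3 on chromosome 13. Several of these runs hold near-identical copies, between which reads may be shared. Whether there were more runs than the shares alone would give was not tested. Txnip, a regulator of glucose uptake, went from 129.6 ± 45.1 to 596 ± 84.2 CPM (SD, n = 3).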
